A study of Mus musculus with 12 samples.

Results

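Brown and white fat of wild-type mice were compared gene by gene in 6 of the 12 libraries of the series, chosen by depot and title alone. There were 3 libraries of brown adipose tissue (BAT) and 3 of inguinal adipose tissue (IWAT, the white fat under the skin of the groin), all with WT-NC in the title. The animals were C57BL/6 mice with the genotype label WT, and NC is read as the normal chow named in the series text. The other 6 libraries, from Adv-CGRPalpha+/- animals titled HFD, were left out. All 6 libraries share strain, genotype and diet, so depot is the labelled factor that differs between the groups. The deposited files also differ in format by depot, with summary read tallies in the BAT files only. Age, sex and housing temperature are not given in the sources used here. Poly-A RNA was sequenced, single-end and without strand. The labels number 3 replicates per depot and do not say how animals or pools stand behind them, so p-values measure the spread between these samples.

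Brown adipocytes hold many small lipid droplets and many mitochondria, and burn fatty acids and glucose to make heat when sympathetic nerves release noradrenaline. Heat comes from an uncoupling protein that lets protons return through the inner mitochondrial membrane without driving ATP synthesis. White adipocytes hold 1 large droplet, store triglyceride, and release hormones such as leptin and adiponectin. Inguinal fat can also form beige adipocytes, which carry the same uncoupling protein after cold exposure.

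The libraries held 17408621 to 23514095 counts over genes, and 22197 to 23939 genes had at least 1 count. Levels are given as CPM, counts scaled to a common library size. The 3 IWAT libraries resembled each other closely, with a Pearson correlation of log2 CPM across genes of 0.973 to 0.977, where genes are not independent replicates. BAT replicates 1 and 2 correlated at 0.956, and BAT replicate 3 stood apart at 0.921 and 0.919 with them, against 0.905 to 0.916 with the IWAT libraries. Skeletal muscle transcripts varied strongly: 22 muscle markers summed to 22726, 79045 and 748 CPM in BAT and to 149, 469.6 and 1098 CPM in IWAT. BAT replicates 1 and 2 were thus far above the rest, and BAT replicate 3 lay within the IWAT range. Of the 21 muscle markers tested, 20 were called higher in BAT with all libraries and 0 with BAT replicate 3 alone, and the part of muscle RNA in other differences was not tested beyond that setting. BAT replicate 3 in turn held the most leptin, matrix and macrophage RNA of the BAT libraries. Counts per gene list are therefore also given without BAT replicate 3 where that changes the picture. Counts or medians are given as well with BAT replicate 3 as the sole BAT library, a setting chosen after seeing these sums. It assumes that the lone library varies as the IWAT libraries do.

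**Figure D1:**
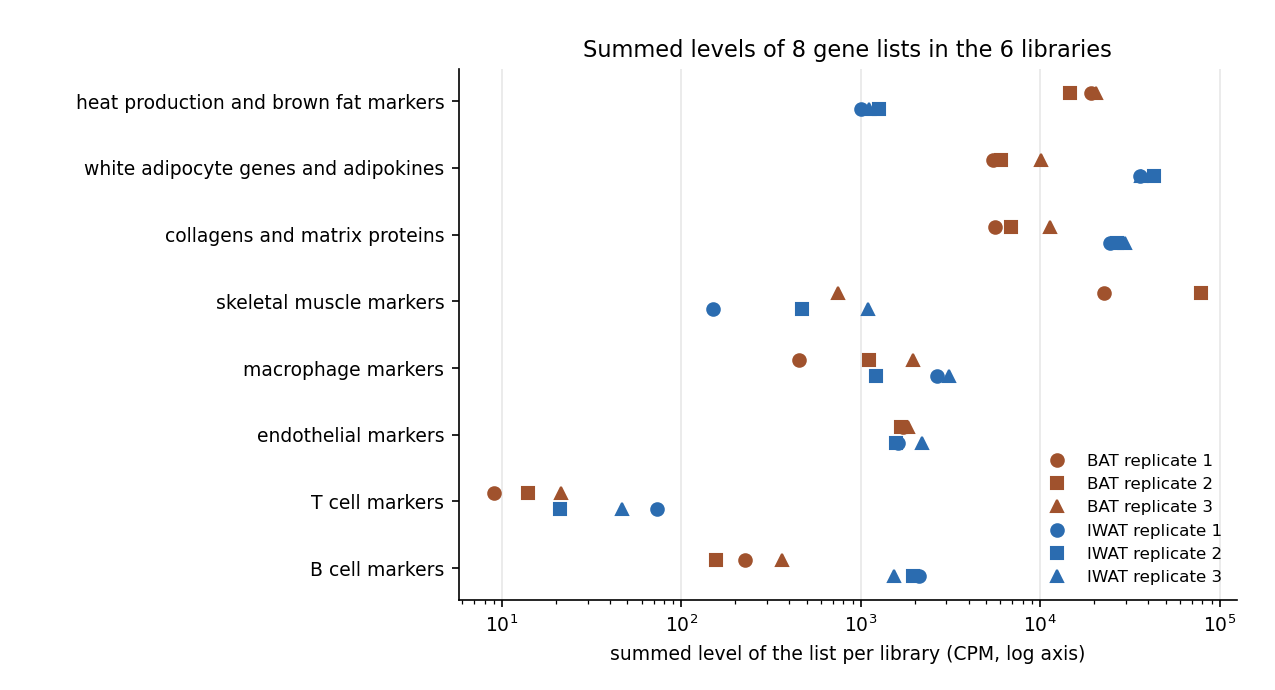
Summed level of 8 gene lists in each library, in CPM on a log axis. Brown symbols are BAT and blue symbols IWAT libraries. The heat production list separates the depots, and skeletal muscle markers are high in BAT replicates 1 and 2 but not in BAT replicate 3.

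Of 16173 genes tested, 4337 (26.8%) differed between the depots at an adjusted p under 0.05 by edgeR's quasi-likelihood test. Of these, 2300 (14.2% of genes tested) were higher in BAT and 2037 (12.6%) were higher in IWAT. All 3 BAT libraries lay above all 3 IWAT libraries for 3595 genes (22.2%), and below them for 3739 genes (23.1%). The called differences were mostly large: 1823 genes were over 2-fold higher in BAT and 1520 in IWAT, and 295 and 97 were over 16-fold higher. The median log2 fold change of BAT over IWAT was 0.00 over all genes, 1.66 over the genes called higher in BAT and -1.42 over those called higher in IWAT. Every log2 difference is BAT minus IWAT. For 141 genes called higher in BAT, BAT replicate 3 was not above every IWAT library.

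Scaling by library totals gave 1806 genes higher in BAT and 3408 higher in IWAT, and moved the median of all genes to -0.22. Without BAT replicate 3 the counts were 3370 and 3599, and without BAT replicate 1 they were 1704 and 1348. They fell to 1105 and 806 without IWAT replicate 1, to 1397 and 996 without IWAT replicate 2, and to 1134 and 778 without IWAT replicate 3. In every one of the 6 fits that leave out a library, 987 genes were called higher in BAT and 638 higher in IWAT. Every list count below stands beside the shares over all genes, 14.2% higher in BAT and 12.6% higher in IWAT. Without BAT replicate 3 a larger share of all genes was called, and with BAT replicate 3 alone a smaller one. Because these are whole tissues, more cells of a type and more RNA per cell cannot be told apart for any gene here.

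**Figure D2:**
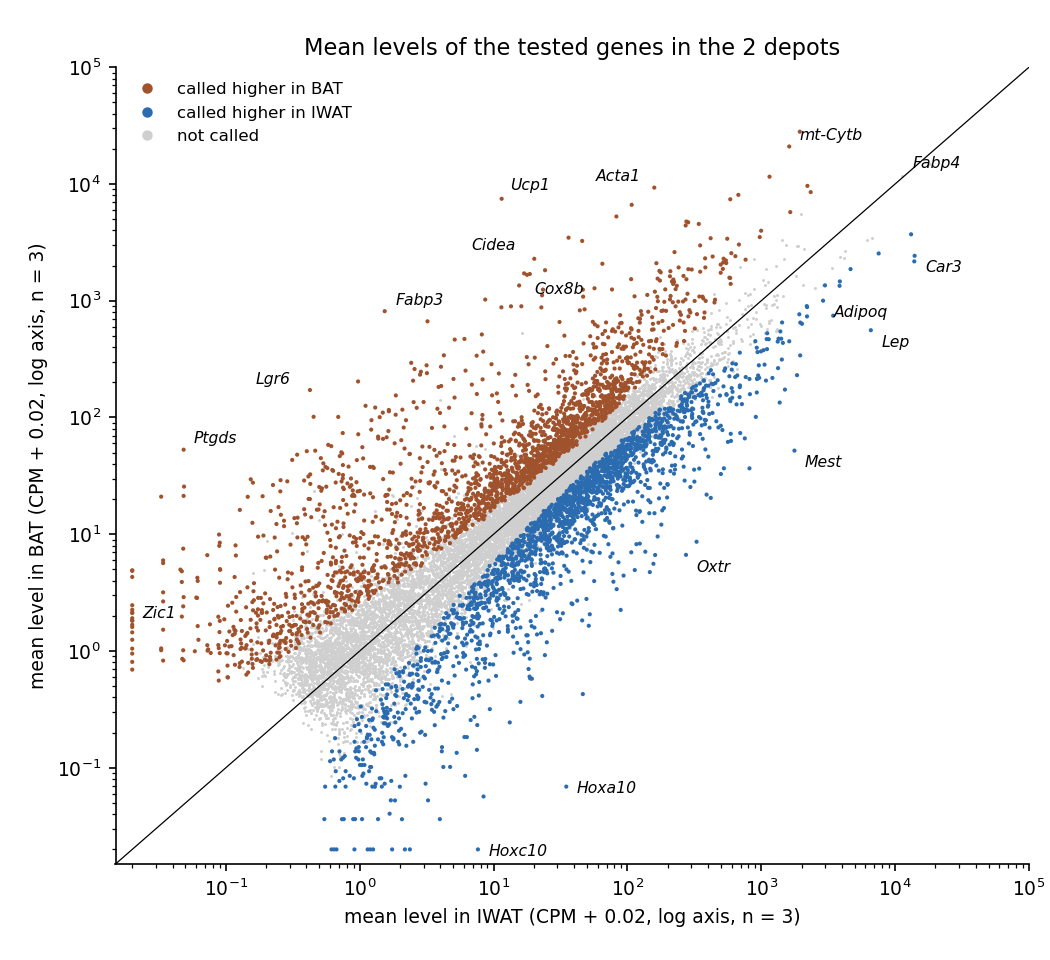
Mean level of each of the 16173 tested genes in IWAT (horizontal) and BAT (vertical), in CPM plus a small constant on log axes, n = 3 per depot. Brown points are the 2300 genes called higher in BAT and blue points the 2037 called higher in IWAT. The diagonal marks equal levels. Ucp1, Fabp3 and Ptgds lie far above it, and Hoxc10, Hoxa10 and Mest far below.

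The genes of heat production set the depots clearly apart. Of the 30 list members, all tested, 26 were called higher in BAT and 0 higher in IWAT, with a median log2 fold change of 3.54 against 0.00 for all genes. The same number, 26, were called higher with BAT replicate 3 alone, with a median of 3.51. Ucp1 encodes the uncoupling protein itself (chromosome 8, 83290352 to 83298452, plus strand, GRCm38) and had 7093, 6018 and 9291 CPM in BAT and 3.29, 2.76 and 28.4 CPM in IWAT. Every BAT library lay far above the highest IWAT library, IWAT replicate 3, which itself stood well above the other IWAT libraries. The fitted difference was 651-fold, a log2 difference of 9.35 (SE 1.21, edgeR adjusted p = 0.00169).

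The promoters of 3 genes that mark the depots are shown to place these levels in sequence. Ucp1 and Dio2 are high in BAT and Lep is high in IWAT. Each line gives the 250 bases before the RefSeq start on GRCm38.p6, 5′ to 3′ on the gene's strand. Capitals mark matches on either strand to the nuclear receptor hexamer AGGTCA, the cAMP response element TGACGTCA or the TATA box TATAAA.
Ucp1: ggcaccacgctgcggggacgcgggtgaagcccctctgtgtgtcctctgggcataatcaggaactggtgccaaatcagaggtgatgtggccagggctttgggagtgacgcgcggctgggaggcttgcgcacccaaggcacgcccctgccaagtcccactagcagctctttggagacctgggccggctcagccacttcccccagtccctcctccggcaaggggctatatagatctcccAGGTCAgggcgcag
Dio2: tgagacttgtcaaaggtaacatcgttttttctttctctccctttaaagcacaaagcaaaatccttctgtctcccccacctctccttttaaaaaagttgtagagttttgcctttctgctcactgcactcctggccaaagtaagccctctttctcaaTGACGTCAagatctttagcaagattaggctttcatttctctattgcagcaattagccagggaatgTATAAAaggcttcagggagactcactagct
Lep: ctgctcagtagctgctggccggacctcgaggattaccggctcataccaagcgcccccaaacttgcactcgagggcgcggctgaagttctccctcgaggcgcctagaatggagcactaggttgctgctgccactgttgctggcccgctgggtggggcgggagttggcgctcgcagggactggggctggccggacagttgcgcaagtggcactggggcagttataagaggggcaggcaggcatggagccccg
The Ucp1 stretch (chr8:83290098-83290347, plus strand) holds 1 hexamer, and the Dio2 stretch (chr12:90739039-90739288, minus strand) holds a cAMP response element and a TATA box. The Lep stretch (chr6:29059971-29060220, plus strand) holds none of the 3 motifs, which says only that these letters are not in this window. In the same window of all 32851 RefSeq promoters, 14% held the hexamer, 1.55% the cAMP response element and 12.4% the TATA box. The cAMP response element was in 2.46% of the promoters of genes called higher in BAT, 0.99% of those called higher in IWAT and 2.62% of those tested and not called. The hexamer was in 14%, 11.1% and 10.7% of these. A match is a description of letters and not of a bound site.

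Several other brown fat genes also differed widely. Cidea, a lipid droplet protein of brown adipocytes, had 2944, 1778 and 2139 CPM in BAT and 13.9, 26.8 and 19.7 CPM in IWAT, 114-fold higher in BAT (log2 6.83, SE 0.45, adjusted p = 0.00026). Fabp3, which carries fatty acids in the cytosol, had 967, 775 and 699 CPM in BAT and 0.348, 1.55 and 2.65 CPM in IWAT, a 536-fold difference (log2 9.07, SE 0.75, adjusted p = 0.000411). In neither gene did the depots come near each other. Slc27a2, an acyl-CoA synthetase that takes up long-chain fatty acids, had 123, 80.2 and 101 CPM in BAT and 0.116, 0.129 and 1.05 CPM in IWAT, 234-fold higher in BAT (adjusted p = 0.00052). Cpn2, a carboxypeptidase subunit, was 123-fold higher and Acot11, a thioesterase that splits acyl-CoA, 102-fold higher. Of the exon bases of Acot11, 20.9% are shared with a neighbouring gene.

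The muscle and heart type subunits of cytochrome c oxidase, which brown fat also uses, were among these genes. Cox7a1 had 975, 608 and 414 CPM in BAT and 2.36, 3.97 and 3.24 CPM in IWAT, 209-fold higher in BAT (log2 7.70, SE 0.47, adjusted p = 0.000246). Cox8b had 2569, 1540.4 and 1035 CPM in BAT and 16.3, 20.5 and 14 CPM in IWAT, 101-fold higher (adjusted p = 0.00031). Their widely expressed counterparts differed less, with Cox7a2 5.24-fold and Cox8a 3.79-fold higher in BAT. Per kilobase of exon, mean Cox8b in BAT was 4763 CPM against 1592 for Cox8a, and in IWAT 47 against 420.5. So the ratio of the 2 isoforms was turned round between the depots. Cox7a1 and Cox7a2 had 1245 and 687 CPM per kilobase in BAT, and 5.96 and 131 in IWAT.

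Genes that fuel or gate heat production followed with smaller ratios. Elovl3, a fatty acid elongase induced in active brown fat, had 63.8, 149 and 232 CPM in BAT and 3.95, 3.84 and 7.49 CPM in IWAT (29.1-fold, adjusted p = 0.000902). Pank1, which starts coenzyme A synthesis, was 43.9-fold higher in BAT, and S100b, a calcium-binding protein that brown adipocytes secrete, 21.8-fold. Letmd1, a mitochondrial protein needed for heat production in mice, had 628, 569.7 and 1334 CPM in BAT and 49.6, 46.4 and 47.5 CPM in IWAT (17.6-fold, adjusted p = 0.000688). Dio2, which activates thyroid hormone inside the cell, had 24.1, 10.5 and 19.7 CPM in BAT and 1.12, 1.86 and 2.19 CPM in IWAT, 10.5-fold higher (log2 3.39, SE 0.41, adjusted p = 0.00132). Its levels were low but the depots did not overlap. Plin5, which ties droplets to mitochondria, was 10.1-fold higher and glycerol kinase (Gk) 6.04-fold. Otop1, Clstn3, Oplah, Eva1a and Kcnk3 were 2.14- to 4.51-fold higher. Bmp8b, a secreted factor made by active brown adipocytes, had 1.47, 2.29 and 3.58 CPM in BAT and 0 counts in every IWAT library, at least 59.4-fold higher against a floor of 3 counts over the IWAT group. Hspb7, a small heat shock protein also found in muscle, was high in BAT replicates 1 and 2 only (86.3, 148 and 6.42 CPM in BAT and 4.61, 6.99 and 7.12 CPM in IWAT), like the muscle markers. Its adjusted p was 0.0217 with all libraries and 0.939 with BAT replicate 3 alone. The 4 members not called were Mtus1, Slc29a1, Eva1b and Lgals12, each within 1.5-fold between the depots.

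**Figure D3:**
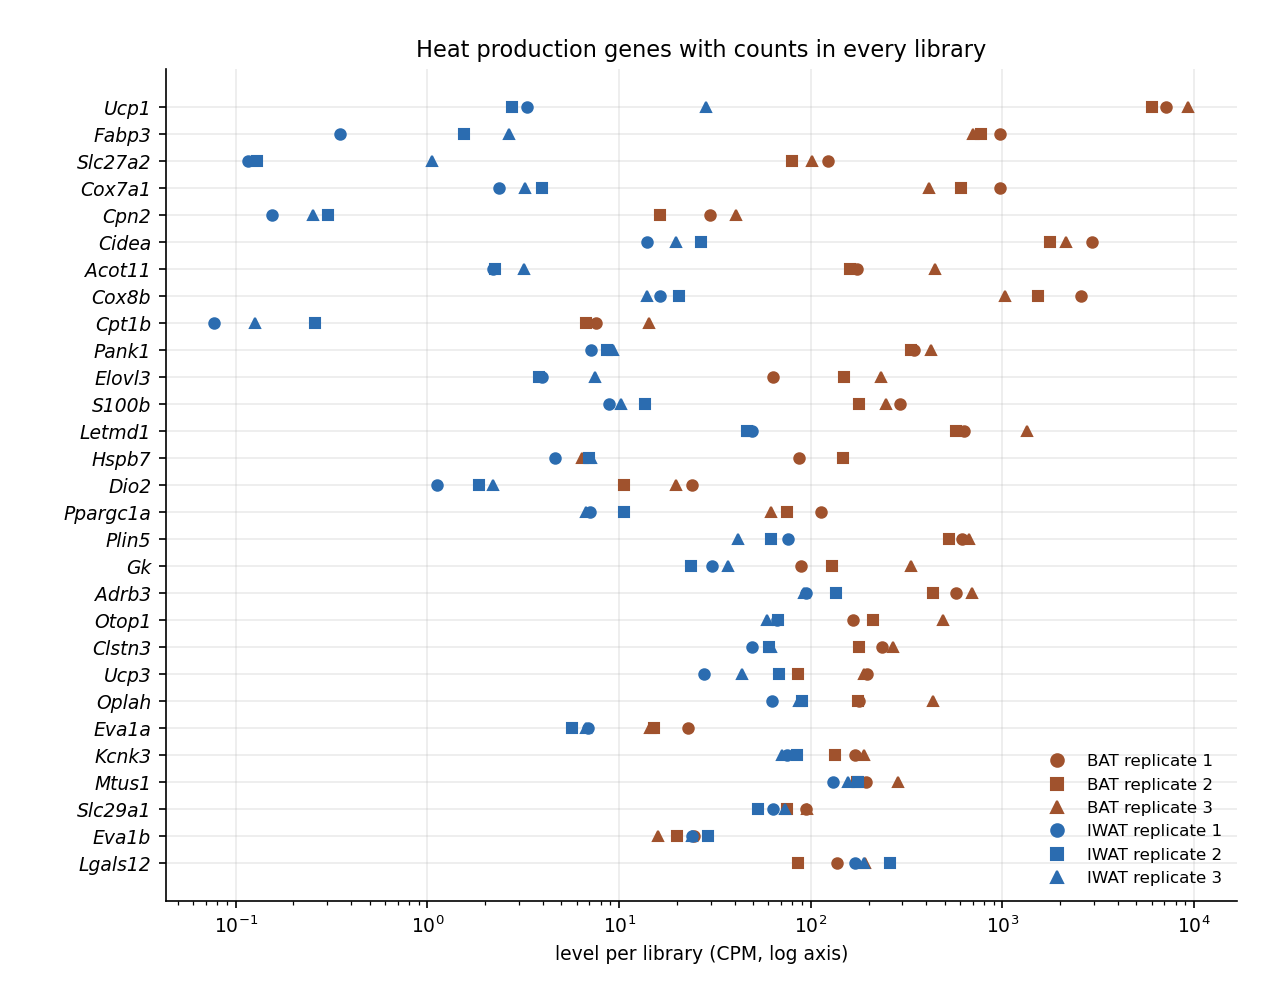
Level of the 29 heat production genes with counts in every library, 1 row per gene, in CPM on a log axis. Brown symbols are BAT and blue symbols IWAT libraries, ordered by fold change. The depots separate for the 26 called genes other than Hspb7 (Bmp8b, with no IWAT counts, is not drawn).

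The adenine nucleotide carriers exchange ADP and ATP across the inner membrane. They and the other uncoupling proteins did not share the size of the Ucp1 difference. The gene list that holds them also holds Ucp1, whose call is counted with theirs. Ucp3, the form best known from muscle, had 197, 85.4 and 189 CPM in BAT and 27.7, 68 and 44 CPM in IWAT and was 3.38-fold higher in BAT (adjusted p = 0.0179). Ucp2 had 123, 247 and 300.3 CPM in BAT and 612, 282 and 445 CPM in IWAT and was not called (log2 -1.0, SE 0.40, adjusted p = 0.10). In the 8 tested members of this list 3 were called higher in BAT and 0 higher in IWAT (4 and 0 with BAT replicate 3 alone, 4 and 2 without it). Slc25a4, the carrier of heart and muscle, had 1163, 2315 and 549 CPM in BAT and 225, 259 and 218 CPM in IWAT (5.74-fold), with the highest value in the library with the most muscle RNA. Its adjusted p with BAT replicate 3 alone was 0.00337.

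Among 24 transcription regulators linked to brown fat, 12 were called higher in BAT and 1 higher in IWAT, with a median log2 fold change of 0.65. The counts were 11 and 1 with BAT replicate 3 alone. Ppara, the nuclear receptor that drives fatty acid oxidation, had 232, 148 and 256 CPM in BAT and 6.78, 10.1 and 7.87 CPM in IWAT, 25.7-fold higher in BAT (log2 4.68, SE 0.30, adjusted p = 0.00026). The coactivators of mitochondrial biogenesis moved with it: Ppargc1a had 114, 75.3 and 62.3 CPM in BAT and 7.05, 10.6 and 6.69 CPM in IWAT (10.3-fold, adjusted p = 0.000527), and Ppargc1b was 12.6-fold higher. Their partners, the estrogen-related receptors, were all higher in BAT, with Esrra 4.29-fold, Esrrg 6.9-fold and the sparse Esrrb 16.8-fold. Ebf2, which marks brown adipocyte precursors, was 2.16-fold and Cebpb 3.19-fold higher. Prdm16, a coregulator that holds brown identity, had 53.7, 28.6 and 40.7 CPM in BAT and 30.8, 33.2 and 28.8 CPM in IWAT and did not pass the test (log2 0.41, SE 0.24, adjusted p = 0.24).

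Zic1 and Lhx8, used as markers of classical brown fat in mice, went opposite ways. Zic1 (chromosome 9, 91358058 to 91365810, minus strand) had 2.15, 1.71 and 1.13 CPM in BAT and 0 counts in every IWAT library, at least 40.3-fold higher (adjusted p = 0.00314). Lhx8 had 2.58, 0.928 and 4.51 CPM in BAT and 13, 11.3 and 7.24 CPM in IWAT and was called higher in IWAT (log2 -1.98, SE 0.53, adjusted p = 0.0291). Its depots did not overlap, but the call was lost with BAT replicate 3 alone (adjusted p = 0.0854). Of 9 tested beige fat markers, 3 were called higher in BAT and 2 higher in IWAT, also with BAT replicate 3 alone. P2rx5, an ATP-gated channel, was 15.9-fold higher in BAT, and Klhl13 4.89-fold higher in IWAT. The sign of this list's median (0.15) turned with scaling by library totals.

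The respiratory chain was higher in BAT almost throughout. It consists of complexes I to IV, which pass electrons to oxygen, all but complex II pumping protons, and an ATP synthase that uses the gradient. All 36 nuclear-encoded complex I subunits tested were called higher in BAT, with a median log2 fold change of 2.47, as were all 4 of complex II (2.05) and all 9 of complex III (2.87). In complex IV 15 of 16 were called (2.72), and in the ATP synthase list 13 of 16 (1.86). No member of these 5 lists was called higher in IWAT with all libraries. With BAT replicate 3 alone the counts were 36, 4, 9, 14 and 11, and 1 ATP synthase gene, Atp5g1, was called higher in IWAT. Its levels were 73.3, 212 and 14.1 CPM in BAT and 36.5, 36.5 and 31.8 CPM in IWAT, again highest in the library with the most muscle RNA.

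The order of the BAT libraries was not the same in every subunit. Ndufa1, a small subunit of complex I, had 719, 494 and 277 CPM in BAT and 56.3, 56.5 and 45.4 CPM in IWAT, so BAT replicate 1 was highest and BAT replicate 3 lowest of the BAT libraries. Sdha, the large catalytic subunit of complex II, had 1252, 1894 and 4078 CPM in BAT and 596, 700.1 and 626 CPM in IWAT, in the opposite order. Both were called higher in BAT, 9.42-fold (adjusted p = 0.00106) and 3.76-fold (adjusted p = 0.020). Genes with under 1 kilobase of exon took 5.29, 3.68 and 2.52% of protein-coding counts in BAT and 1.72 to 2.01% in IWAT. Across tested protein-coding genes, 40.7% of those under 1 kilobase were called higher in BAT and 6.96% higher in IWAT, against 8.51% and 16.3% of those of 6 kilobases or more. The part of transcript length in the results for short genes was not tested.

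Further examples came from each complex. Sdhb, the iron-sulfur subunit of complex II, had 1919.5, 1602 and 1846 CPM in BAT and 203, 239 and 187 CPM in IWAT (8.55-fold, adjusted p = 0.000561). In complex III, Uqcrc1 was 8.52-fold, Uqcrfs1 7.78-fold and Uqcrq 9.21-fold higher. In complex IV, Cox7b was 11-fold and Cox5a 9.16-fold higher. Cox6a2, a muscle subunit, had 143, 473 and 3.63 CPM in BAT and 1.05, 2.5 and 3.92 CPM in IWAT, high where the muscle markers were high, and its adjusted p was 0.623 with BAT replicate 3 alone. Atp5b, the catalytic beta subunit of the ATP synthase, had 4832, 7891 and 12823 CPM in BAT and 2244, 2595 and 2179.5 CPM in IWAT, and here BAT replicate 3 was highest (3.64-fold, adjusted p = 0.0223). Atpif1, which inhibits the ATP synthase, was at 20.1, 16.9 and 12 CPM in BAT and 20.4, 19.5 and 19 CPM in IWAT and was not called (adjusted p = 0.42).

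Transcripts made by the mitochondrial genome itself were also higher in BAT. They took 14.1, 6.76 and 4.53% of counts in BAT and 0.636 to 0.806% in IWAT, so the BAT replicates differed among themselves by over 3-fold while all lay above IWAT. All 8 mitochondrially encoded messenger RNAs tested were called higher, with a median log2 fold change of 3.86 (3.21 with BAT replicate 3 alone). The other 5 of the 13 had at most 2 counts in any library and were not tested, so the shares above hold almost nothing from them. Their low counts do not show that the transcripts were absent. Of the reads in the BAT files, 23.0 to 31.6% were not unique and were counted for no gene. The part of such reads here was not tested. mt-Cytb, the cytochrome b of complex III, had 34576, 15118 and 13125 CPM in BAT and 1573, 1819 and 1461 CPM in IWAT (12.9-fold, adjusted p = 0.00362). mt-Co1, a catalytic subunit of complex IV, was 10.01-fold and mt-Nd2, of complex I, 16.5-fold higher. The ribosome that translates them followed: 70 of 77 mitochondrial ribosomal protein genes tested were called higher in BAT and 0 higher in IWAT, with a median of 1.17. The count was 59 with BAT replicate 3 alone. Mrpl34 was 5.43-fold higher, and Mrps36, a list member that is a ribosomal protein in name only, 12-fold.

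The tricarboxylic acid cycle, which feeds the chain with electrons, was higher in BAT for 18 of 19 genes (median 2.10, and 18 with BAT replicate 3 alone). Suclg1, a subunit of succinyl-CoA ligase, had 1525, 1599.9 and 2124 CPM in BAT and 180.1, 195 and 157 CPM in IWAT (9.86-fold, adjusted p = 0.000527). Idh3b, a subunit of isocitrate dehydrogenase, was 8.51-fold higher. Pcx, which refills the cycle from pyruvate, was the member not called, at 321, 298 and 1099.5 CPM in BAT and 1124, 1356 and 1432 CPM in IWAT (log2 -1.19, SE 0.52, adjusted p = 0.125).

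Fatty acid oxidation, the main fuel route of brown fat, had 21 of 27 genes called higher in BAT and 1 higher in IWAT (median 1.70). They became 24 and 1 with BAT replicate 3 alone, and 21 and 3 without it. Acaa2, the thiolase of the last step of the cycle, had 4501, 3365 and 5769 CPM in BAT and 323, 402 and 299.6 CPM in IWAT (13.3-fold, adjusted p = 0.000775). Acadvl, which starts on very long chains, was 10.4-fold (42.9% of its exon bases are shared with another gene), and the trifunctional protein subunits Hadha and Hadhb 7.97- and 7.99-fold higher. The 2 forms of the carnitine transferase that admits fatty acids into mitochondria went opposite ways. Cpt1b, the muscle form, had 7.6, 6.69 and 14.3 CPM in BAT and 0.0774, 0.259 and 0.126 CPM in IWAT and was 61.7-fold higher in BAT (adjusted p = 0.000641). Cpt1a, the liver form, had 27.8, 40.4 and 82.6 CPM in BAT and 179.8, 164 and 234 CPM in IWAT and was 3.83-fold higher in IWAT (adjusted p = 0.0104). Of the exon bases of Cpt1b, 81.4% are shared with another gene, so its counts are uncertain. Per kilobase of exon, mean Cpt1a was 6.58 CPM and Cpt1b 2.82 in BAT, and 25.2 and 0.0457 in IWAT.

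**Figure D4:**
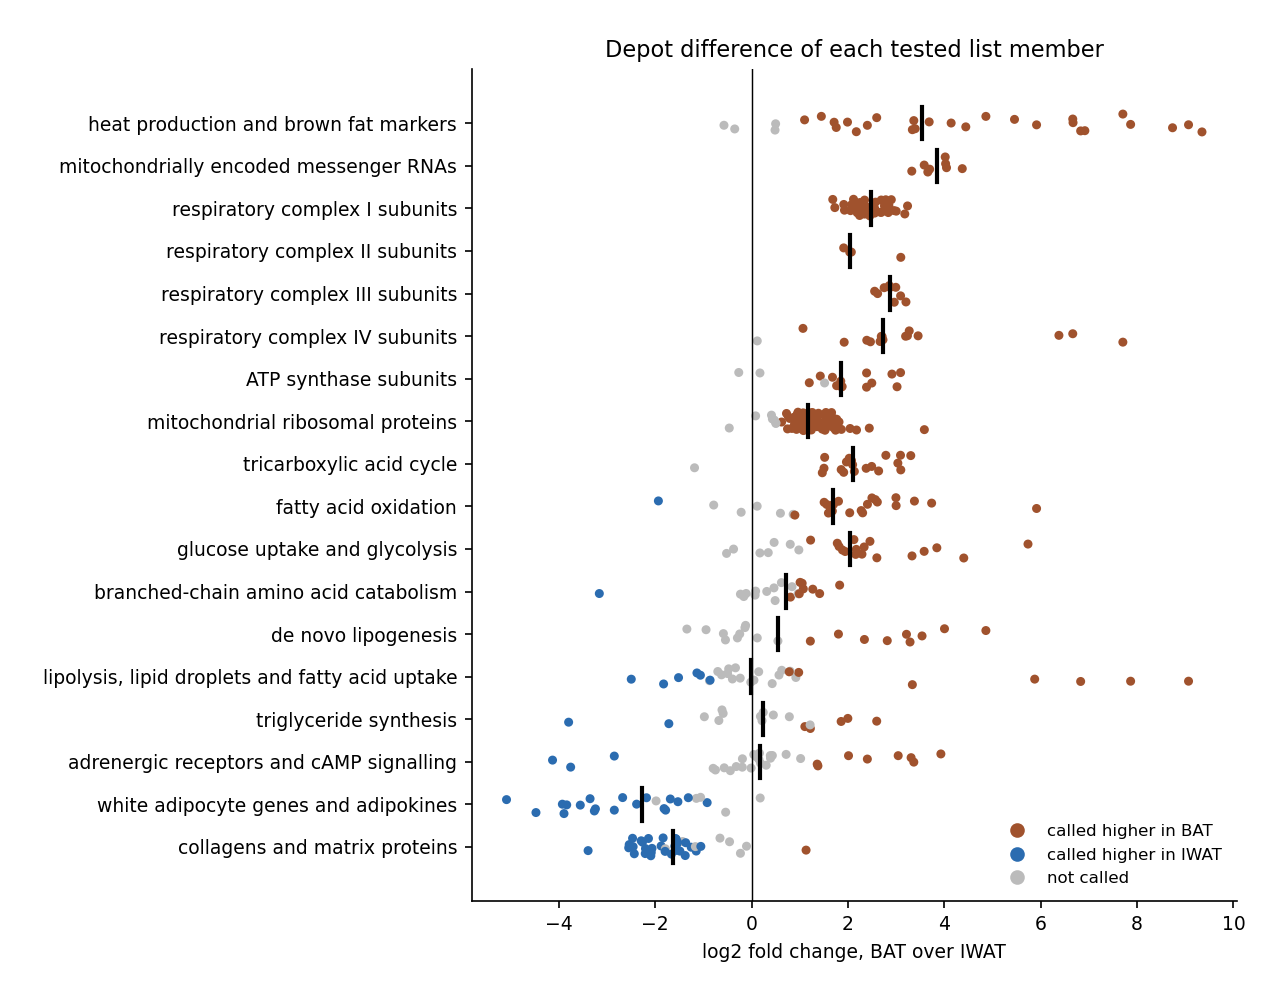
Log2 fold change of BAT over IWAT for each tested member of 18 gene lists, 1 point per gene. Brown points were called higher in BAT, blue points higher in IWAT and grey points were not called; the black bar is the list's median. The members of respiratory complexes I to IV lie to the right of 0, those of the ATP synthase all but 1, and the white adipocyte and collagen lists mostly to the left.

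Branched-chain amino acids, a further fuel of brown fat, are broken down by enzymes of which 8 of 20 were called higher in BAT and 1 higher in IWAT (13 and 1 with BAT replicate 3 alone, 8 and 2 without it). The branched-chain ketoacid dehydrogenase subunit Bckdha was 3.54-fold and Bckdhb 2.66-fold higher in BAT. Bcat1, the cytosolic transaminase, had 4.54, 5.22 and 11 CPM in BAT and 76.3, 58.8 and 51.1 CPM in IWAT and was 8.98-fold higher in IWAT (log2 -3.16, SE 0.37, adjusted p = 0.0011). Bckdha shares 61.7% of its exon bases with another gene, so its counts are uncertain.

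Fatty acid synthesis was also higher in BAT for 9 of 19 genes and higher in IWAT for 0 (median 0.55). The counts were 11 and 0 with BAT replicate 3 alone and 9 and 5 without it, where the median was 0.02. Elovl6, which extends palmitate, had 336, 264 and 375 CPM in BAT and 20.2, 18.1 and 22.6 CPM in IWAT, 16-fold higher in BAT (log2 4.0, SE 0.24, adjusted p = 0.000246). Thrsp, a lipogenic regulator, was 11.6-fold higher. The acetyl-CoA carboxylases, which make malonyl-CoA, were Acaca at 9.76-fold and Acacb at 9.27-fold, and the transcription factor Mlxipl was 7.03-fold higher. Fasn, the fatty acid synthase, had 5781, 4047 and 7383 CPM in BAT and 1133, 1787 and 2019.6 CPM in IWAT (3.48-fold, adjusted p = 0.0171). Scd1, the most abundant lipogenic transcript, was not called (edgeR adjusted p = 0.757). Its depots overlapped, at 8001, 8504 and 27724 CPM in BAT and 12194, 22914 and 19185 CPM in IWAT. Without BAT replicate 3, Scd1 was called higher in IWAT (log2 -1.15, edgeR adjusted p = 0.0292).

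Lipid uptake, droplet and lipolysis genes were split, with 7 of 29 called higher in BAT and 6 higher in IWAT (11 and 4 with BAT replicate 3 alone, 7 and 10 without it). The BAT side included Cidea, Fabp3, Slc27a2, Plin5, Plin3 and Cideb. Of these, Cidea, Fabp3, Slc27a2 and Plin5 were already counted in the heat production list. Cideb had 2 counts in IWAT and shares 76.3% of its exon bases with another gene. The IWAT side held Lpl, the lipase that frees fatty acids from blood lipoproteins, at 3164, 2566 and 5387 CPM in BAT and 12977, 14301 and 12198 CPM in IWAT (3.55-fold, adjusted p = 0.0227). Plin4, a droplet coat protein, had 203, 115 and 174 CPM in BAT and 731, 1129.9 and 916 CPM in IWAT, 5.65-fold higher in IWAT (adjusted p = 0.00163). Cidec, which fuses droplets into large ones, was 2.86-fold and Angptl4, an inhibitor of Lpl, 2.2-fold higher in IWAT. So the CIDE family split between depots, with Cidea high in BAT and Cidec high in IWAT. The lipase Pnpla2 was not called (adjusted p = 0.441). Fabp4, the adipocyte fatty acid binding protein, was among the 10 most abundant transcripts of both depots and was not called (16628, 9284 and 9055 CPM in BAT and 11986, 12562 and 9306 CPM in IWAT).

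Of 17 triglyceride synthesis genes 5 were called higher in BAT and 2 higher in IWAT (8 and 2 with BAT replicate 3 alone, 5 and 5 without it). Gpd1, which makes glycerol 3-phosphate, had 2595, 3248 and 6094 CPM in BAT and 864, 1080.1 and 1049 CPM in IWAT (3.99-fold, adjusted p = 0.0117). Gpam, the mitochondrial acyltransferase of the first step, was 2.33-fold higher in BAT, while Gpat3, an acyltransferase of the same step in the endoplasmic reticulum, was 3.29-fold higher in IWAT. Mogat2, which acylates monoacylglycerol, had 1.84, 1.27 and 3.28 CPM in BAT and 37.1, 27.4 and 24.9 CPM in IWAT and was 14-fold higher in IWAT (adjusted p = 0.000768). Dgat2, of the last step, was not called, at 2257, 2422 and 5599 CPM in BAT and 6522, 7192 and 6579.5 CPM in IWAT. Its depots did not overlap, and without BAT replicate 3 it was called higher in IWAT (log2 -1.55, edgeR adjusted p = 0.00201). With all libraries, the 2 of 17 list members called higher in IWAT were near the 12.6% over all genes. The share called higher in BAT over all genes was 14.2%.

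Glucose handling was higher in BAT for 17 of 24 genes and higher in IWAT for 0 (median 2.03). With BAT replicate 3 alone the median was 1.65. Muscle expresses many of these genes, and the part of muscle RNA was not tested beyond that setting. Ldhb, a lactate dehydrogenase subunit, had 626, 617 and 737 CPM in BAT and 48.6, 76.3 and 40.6 CPM in IWAT (12-fold, adjusted p = 0.000502). Pdk4, which restrains pyruvate oxidation, had 1133, 1374 and 2083 CPM in BAT and 113, 106 and 101 CPM in IWAT (14.3-fold, adjusted p = 0.000514). For both genes every BAT library lay above every IWAT library. Pkm was 6.06-fold, Hk2 3.69-fold and Slc2a4, the insulin-responsive glucose transporter, 2.33-fold higher in BAT. Muscle isoforms behaved otherwise: Eno3 had 921, 2786 and 27.9 CPM in BAT and 6.93, 21.1 and 42.1 CPM in IWAT, and Pfkm 601, 1274 and 97.5 CPM in BAT and 19.4, 30.1 and 43.9 CPM in IWAT. With BAT replicate 3 alone Eno3 was not called (adjusted p = 0.849) and Pfkm was (adjusted p = 0.0238).

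Creatine and calcium cycling, described as heat routes independent of Ucp1 in beige fat, gave calls that mostly went with the muscle transcripts of BAT replicates 1 and 2. Of 13 genes tested, 6 were called higher in BAT and 2 higher in IWAT, and with BAT replicate 3 alone 2 and 2. Ckm, Ckmt2, Atp2a1 and Ryr1 were high in BAT replicates 1 and 2 and near the IWAT range in BAT replicate 3; Ckmt2 had 218, 659 and 4.41 CPM in BAT and 0.426, 2.46 and 4.34 CPM in IWAT. Alpl, a phosphatase of the creatine cycle, was 2.44-fold higher in BAT, at 39.98, 37.2 and 32.8 CPM in BAT and 11, 16.4 and 17.6 CPM in IWAT (adjusted p = 0.00619, and 0.0344 with BAT replicate 3 alone). Atp2a3, a calcium pump of the endoplasmic reticulum, had 25.3, 32.7 and 46.2 CPM in BAT and 171, 265 and 193 CPM in IWAT and was 6.03-fold higher in IWAT (adjusted p = 0.000957). Gamt, of creatine synthesis, was 2.81-fold higher in IWAT. The 2 of 13 genes called higher in IWAT were near the 12.6% over all genes, where 14.2% were called higher in BAT. Ckb, the creatine kinase reported for beige fat, was not called, at 95.6, 77.3 and 133 CPM in BAT and 88.5, 70.6 and 112 CPM in IWAT.

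Noradrenaline reaches adipocytes through beta receptors, which raise cAMP, and through alpha receptors. The shares over all genes were 14.2% higher in BAT and 12.6% higher in IWAT. With all libraries the IWAT count of the list for these signals was near that share. Of 30 adrenergic and cAMP genes tested 8 were called higher in BAT and 3 higher in IWAT (10 and 4 with BAT replicate 3 alone, 11 and 7 without it). Adrb3, the beta receptor of mouse adipocytes, had 573, 435 and 695 CPM in BAT and 94.9, 135 and 92.2 CPM in IWAT, 5.28-fold higher in BAT (log2 2.40, SE 0.28, adjusted p = 0.00119). Adrb1 had 57.1, 29.9 and 34.7 CPM in BAT and 2.67, 5.44 and 4.17 CPM in IWAT (9.92-fold, adjusted p = 0.000902). Per kilobase of exon, Adrb3 exceeded Adrb1 in both depots, at 168 against 12 CPM in BAT and 31.8 against 1.21 in IWAT. Adra1a, a calcium-coupled alpha receptor, was 2.59-fold higher in BAT. Adra2a and Adra1b were called higher in IWAT, where their levels were at most 2.59 CPM.

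Of the 7 adenylyl cyclases in the list, which make cAMP, 2 were called higher in BAT and 1 higher in IWAT. Adcy5 had 4.72, 4.59 and 19.4 CPM in BAT and 146, 180.5 and 178 CPM in IWAT and was 17.6-fold higher in IWAT (log2 -4.13, SE 0.58, adjusted p = 0.00236). Adcy10, the soluble cyclase activated by bicarbonate, had 8.22, 7.52 and 11 CPM in BAT and 0.465, 0.69 and 0.589 CPM in IWAT and was 15.3-fold higher in BAT (adjusted p = 0.000516). Adcy2 was high in the 2 libraries with much muscle RNA (12.6, 25 and 0.637 CPM in BAT and 1.28, 0.777 and 1.64 CPM in IWAT), with an adjusted p of 0.0438 and of 0.425 with BAT replicate 3 alone. The phosphodiesterases Pde4a and Pde4d, which degrade cAMP, were 4.03- and 2.57-fold higher in BAT.

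White adipocyte genes gave the mirror image. Of 24 tested, 19 were called higher in IWAT and 0 higher in BAT, and the median log2 difference was -2.29 (19 and 0 with BAT replicate 3 alone, median -2.17). Lep, the gene for the satiety hormone leptin (chromosome 6, 29060220 to 29073877, plus strand), had 315, 189.8 and 1172 CPM in BAT and 6769.8, 7188 and 5791 CPM in IWAT, 11.8-fold higher in IWAT (log2 -3.56, SE 0.71, adjusted p = 0.0101). BAT replicate 3 held several times the Lep of the other BAT libraries and still lay below every IWAT library; without it the log2 difference of Lep was -4.72. Retn, the gene for resistin, had 46.4, 13.4 and 50.2 CPM in BAT and 711, 1092 and 646 CPM in IWAT (22.3-fold, adjusted p = 0.00134). Adipoq, the gene for adiponectin, was high in both depots at 1104, 738 and 1162 CPM in BAT and 3396, 2970.4 and 2315 CPM in IWAT and 2.89-fold higher in IWAT (adjusted p = 0.015).

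Other white fat genes had wider gaps. Mest, an imprinted gene linked to adipocyte enlargement, had 38.4, 13.6 and 104 CPM in BAT and 2212, 1561 and 1536 CPM in IWAT, 34-fold higher in IWAT (log2 -5.09, SE 0.75, adjusted p = 0.00284, and log2 -6.11 without BAT replicate 3). Slc7a10, an amino acid transporter of white adipocytes, had 36, 14.8 and 47.6 CPM in BAT and 486, 559 and 453 CPM in IWAT (15.2-fold, adjusted p = 0.000938). Apcdd1, a Wnt inhibitor, was 14.9-fold, Lbp, which binds bacterial lipopolysaccharide, 14.3-fold, and Ccdc80, a secreted matrix protein, 10.2-fold higher. Cfd, the gene for adipsin, was 4.54-fold higher at 502, 231 and 209 CPM in BAT and 1029, 2277 and 968 CPM in IWAT. Of the 24 tested, 5 were not called.

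Factors reported as secreted by brown fat did not follow 1 direction, with 6 of 19 called higher in BAT and 5 higher in IWAT (5 and 4 with BAT replicate 3 alone, 6 and 7 without it). Ptgds, a prostaglandin D synthase, had 96.1, 39.7 and 23.1 CPM in BAT and 0, 0.0432 and 0.0421 CPM in IWAT, which was 2 counts in all of IWAT. The pooled ratio of BAT to IWAT was 1814 (95% counting interval 502 to 14989). Gdf15, a stress hormone, had 15.9, 23.2 and 25.6 CPM in BAT and 3.48, 1.34 and 2.32 CPM in IWAT (9.06-fold, adjusted p = 0.00143), and Pm20d1, an enzyme that makes N-acyl amino acids, was 3.26-fold higher in BAT. Nrg4, a ligand of ErbB receptors, was 1.99-fold higher, with an adjusted p of 0.0273 and of 0.0577 with BAT replicate 3 alone. Igf1 had 26.1, 21.7 and 32.9 CPM in BAT and 214, 199 and 183 CPM in IWAT and was 7.39-fold higher in IWAT (log2 -2.88, SE 0.22, adjusted p = 0.000365). Fgf21 was low in both depots (3.43, 2.54 and 5.78 CPM in BAT and 2.28, 2.24 and 3.28 CPM in IWAT) and was not called (adjusted p = 0.301).

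Hox genes encode transcription factors that mark position along the body axis, with low paralog numbers toward the head and high numbers toward the tail. Of 39 Hox genes 26 were tested, 4 called higher in BAT and 5 higher in IWAT (4 and 9 with BAT replicate 3 alone). Over all genes tested, 14.2% were called higher in BAT and 12.6% higher in IWAT, so the counts with all libraries were near that share. With all libraries the 4 genes on the BAT side had paralog numbers of 5 or lower, and the 5 on the IWAT side numbers of 9 or higher. This did not hold with BAT replicate 3 alone, where Hoxb5, Hoxc8 and Hoxd4 were also called higher in IWAT (adjusted p = 0.0446, 0.00555 and 0.0444) and Hoxa2 lost its call in BAT (adjusted p = 0.0561). On the BAT side Hoxa5 had 42.6, 21.7 and 21.7 CPM in BAT and 2.79, 3.8 and 1.85 CPM in IWAT (10.2-fold, adjusted p = 0.00118) and Hoxa4 had 4.78, 6.54 and 6.37 CPM in BAT and 0.697, 0.734 and 0.505 CPM in IWAT (9.14-fold, adjusted p = 0.000957). Hoxa2 and Hoxc4 were 4.36- and 3.09-fold higher in BAT. The depots did not overlap for any of these 4 genes.

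Hoxc10 and Hoxa10 were nearly undetected in BAT. Hoxc10 (chromosome 15, 102966796 to 102971893, plus strand) had 0 counts in every BAT library and 7.63, 7.21 and 8.04 CPM in IWAT, at least 145-fold higher against a floor of 3 counts over the BAT group (adjusted p = 0.00052). Hoxa10 (chromosome 6, 52231197 to 52240854, minus strand) had 0, 0 and 0.147 CPM in BAT and 31.1, 34.6 and 39.1 CPM in IWAT, and its 3 BAT counts all lay in BAT replicate 3. Its pooled ratio of IWAT to BAT was 664 (95% counting interval 227 to 3221). Hoxc9 had 0.123, 0.0488 and 0.196 CPM in BAT and 6.5, 7.81 and 8.17 CPM in IWAT, 61.2-fold higher in IWAT (log2 -5.87, SE 0.48, adjusted p = 0.00041). Hoxa9 was 15.6-fold and Hoxb9 4.57-fold higher. Between these groups lay Hoxc8, at 8.58, 0.146 and 15.9 CPM in BAT and 46, 61.5 and 45.4 CPM in IWAT, with every BAT library below IWAT. The BAT libraries spread widely and the gene was not called (adjusted p = 0.0813). BAT replicate 2, with the most muscle RNA, had the lowest Hoxc8 value.

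**Figure D5:**
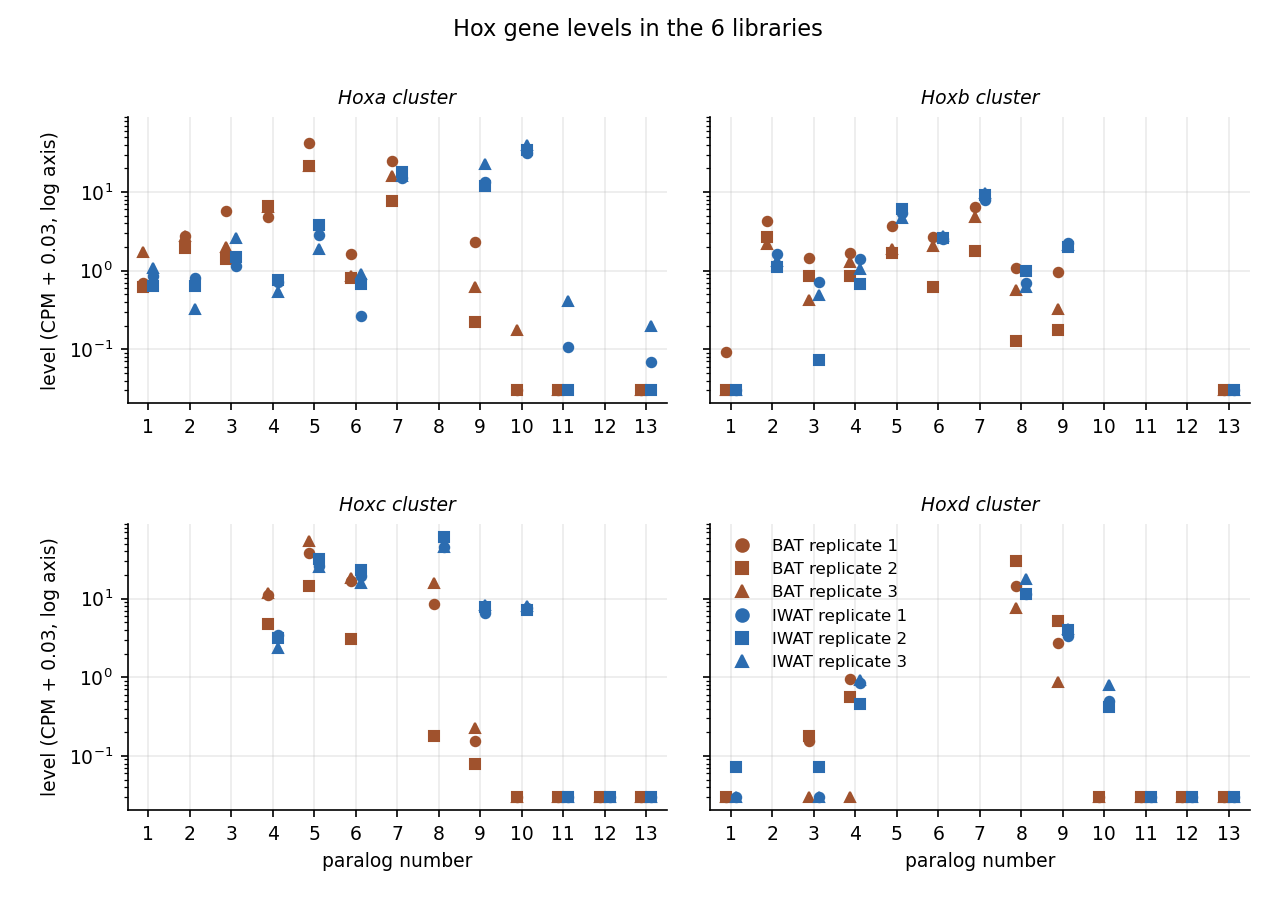
Level of the 39 Hox genes in each library by cluster and paralog number, in CPM plus a small constant on a log axis, so that the lowest points are 0 counts. Brown symbols are BAT and blue symbols IWAT libraries. In the Hoxa and Hoxc clusters BAT is higher at paralog 4, and paralogs 9 and 10 are higher in IWAT.

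Of 61 other patterning factors 30 were tested, with 3 called higher in BAT and 5 higher in IWAT (2 and 3 with BAT replicate 3 alone, 10 and 5 without it). With all libraries these counts were again near the share over all genes, 14.2% higher in BAT and 12.6% higher in IWAT. Shox2, a limb and heart factor also used as a white fat marker, had 0.736, 2.54 and 1.57 CPM in BAT and 10.1, 11.5 and 16.6 CPM in IWAT (7.9-fold higher in IWAT, adjusted p = 0.00355). Tbx5, a forelimb factor, was 2.84-fold higher in BAT at 7.6, 3.76 and 7.2 CPM in BAT and 2.79, 1.68 and 2.06 CPM in IWAT. Tbx15, expressed in both fat and muscle, had 47.3, 96.9 and 8.72 CPM in BAT and 17.2, 16.5 and 18.5 CPM in IWAT, following the muscle markers, and was not called (adjusted p = 0.122). With BAT replicate 3 alone its direction turned, to a log2 difference of -0.98 (adjusted p = 0.0285). Six4 also followed them, and its call was lost with BAT replicate 3 alone (adjusted p = 0.626). En1 was near 1 CPM in both depots and was not called.

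Collagens and other matrix proteins, made by fibroblasts and adipocytes, were higher in IWAT for 30 of 38 genes and higher in BAT for 1 (median -1.63, 31 and 0 with BAT replicate 3 alone). Their summed level was 5618, 6837 and 11367 CPM in BAT and 24603 to 29533 CPM in IWAT. Col15a1, a basement membrane collagen, had 9.5, 11.2 and 24.6 CPM in BAT and 129.9, 190.2 and 158 CPM in IWAT (10.5-fold, adjusted p = 0.00107). Col16a1 was 5.87-fold, Dpt 5.82-fold and the basement membrane linker Nid1 5.55-fold higher in IWAT. The exception was Col12a1, 2.19-fold higher in BAT at 39.1, 49.8 and 27.2 CPM in BAT and 24.1, 10.8 and 18.2 CPM in IWAT (adjusted p = 0.040, and 0.315 with BAT replicate 3 alone).

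Over all genes tested, 12.6% were called higher in IWAT and 14.2% higher in BAT. Among markers of other cell types, the lists above that IWAT share included fibroblast, T cell, smooth muscle, class II presentation, and mast cell and neutrophil markers. Mast cell and neutrophil markers had 2 of 8 called higher in IWAT (median log2 difference -1.11, and -0.18 with BAT replicate 3 alone). Fibroblast and adipocyte progenitor markers had 8 of 13 called higher in IWAT and 0 higher in BAT, also with BAT replicate 3 alone. Dpp4 and Pi16, markers of early progenitors, were 4.11- and 3.82-fold higher. Over all genes, 3528 of 16160 were called higher in IWAT without BAT replicate 3, a larger share than with all libraries. Macrophage markers had 2 of 16 called higher in IWAT, near the share over all genes, with 1 for BAT replicate 3 alone and 12 without it. They summed to 455, 1112 and 1965 CPM in BAT and 2652, 1209 and 3113 in IWAT. Cd163, a resident macrophage receptor, had 5.09, 15.3 and 12.2 CPM in BAT and 50.9, 33.9 and 58.3 CPM in IWAT (4.39-fold, adjusted p = 0.00792).

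For endothelial, B cell, Schwann cell and dividing cell markers the share called in each direction was below that over all genes. Endothelial markers had 1 of 12 called in each direction (0 and 0 with BAT replicate 3 alone). T cell markers had 4 of 13 called higher in IWAT, all at under 20 CPM, with 0 for BAT replicate 3 alone and 7 without it. Of 11 B cell markers the 1 called was Ighm, the constant region of immunoglobulin M, at 206, 142 and 343 CPM in BAT and 2088, 1948 and 1515 CPM in IWAT (8.03-fold higher in IWAT, adjusted p = 0.00191). With BAT replicate 3 alone 1 was again called. Of smooth muscle and pericyte markers 3 of 12 were called higher in IWAT (3 with BAT replicate 3 alone), led by Acta2 (3.51-fold). Class II presentation genes had 2 of 9 called higher in IWAT, with 0 for BAT replicate 3 alone and 7 without it. Dividing cell markers had 1 of 17, with 0 and 5 in these settings. Of 10 Schwann cell markers, S100b, which brown adipocytes also express, was called higher in BAT and Pmp22 higher in IWAT (1 and 2 with BAT replicate 3 alone).

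Outside these lists, the genes with the largest calls that held in every leave-one-out fit included a ligand and a receptor of 1 pathway on the BAT side. Lgr6, a receptor for R-spondins, which strengthen Wnt signals, had 144, 160.5 and 211 CPM in BAT and 0.194, 0.475 and 0.547 CPM in IWAT, 424-fold higher in BAT (log2 8.72, SE 0.40, adjusted p = 0.000115). Rspo4, an R-spondin, had 22, 35.7 and 19.1 CPM in BAT and 0, 0.0863 and 0 CPM in IWAT, or 2 counts in all of IWAT, a pooled ratio of 941 (95% counting interval 259.9 to 7774). Kng2, a kininogen, had 174, 157 and 279.6 CPM in BAT and 0.387, 1.25 and 1.22 CPM in IWAT (213-fold, adjusted p = 0.00026). Slc2a5, the fructose transporter, was 198-fold and Car14, a membrane carbonic anhydrase, 166-fold higher. Acox2, a peroxisomal acyl-CoA oxidase, and the chaperone Dnajc22 had 1 count in all of IWAT against means of several CPM in BAT.

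On the IWAT side, Oxtr, the oxytocin receptor, had 2.88, 1.12 and 15.9 CPM in BAT and 315, 209 and 297 CPM in IWAT, 41.2-fold higher (log2 -5.36, SE 0.91, adjusted p = 0.00522). Ret, a receptor tyrosine kinase for GDNF family ligands, had 0.675, 2.54 and 3.48 CPM in BAT and 65.1, 94 and 108 CPM in IWAT (39.9-fold, adjusted p = 0.00071). Both kept every BAT library far below IWAT. Lipf, the gene for gastric lipase, had 0, 0.342 and 0.882 CPM in BAT and 60.6, 27.2 and 51.5 CPM in IWAT (114-fold, adjusted p = 0.00097). Dnajc6, a cofactor for removing clathrin coats, had 0.0613, 0 and 0.049 CPM in BAT and 11.6, 3.15 and 10.5 CPM in IWAT, a pooled ratio of IWAT to BAT of 244 (95% counting interval 67.3 to 2020.2). Klf14, a Krüppel-like factor, was 58.8-fold and Alb, the albumin gene, 45.7-fold higher in IWAT. Grid1, a glutamate receptor subunit, Folh1, a folate hydrolase, and Pkp1, a desmosomal protein, were 93.7-, 58.9- and 46.2-fold higher, with all 4 Grid1, 23 of 24 Folh1 and all 7 Pkp1 counts of BAT in BAT replicate 3. Without that library BAT held 0, 1 and 0 counts of them, at or under the floor. Without it the log2 differences of Oxtr, Lipf and Klf14 were -7.14, -7.92 and -6.86.

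By mean level, the 10 most abundant transcripts of BAT were mt-Rnr2, mt-Cytb, Scd1, Fabp4, mt-Co1, Aldoa, Acta1, Atp5b, mt-Nd1 and Ucp1. Acta1 is skeletal muscle actin and was high in BAT replicates 1 and 2 (5846, 21871 and 195 CPM in BAT and 51.6, 155 and 269.8 CPM in IWAT). The 10 most abundant of IWAT were Car3, Gsn, Lpl, Sparc, Dgat2, Lep, Cd36, Cav1, Scd1 and Fabp4. Car3, a cytosolic carbonic anhydrase, had 2750.4, 2319 and 2209 CPM in BAT and 13220, 19485 and 9235 CPM in IWAT (5.76-fold higher in IWAT, adjusted p = 0.00737). Gsn, the actin-severing protein gelsolin, was 6.4-fold higher.

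Long non-coding genes leaned toward BAT, with 264 of 1386 tested called higher in BAT and 55 higher in IWAT, against 1908 and 1948 of 13740 protein-coding genes. Lncbate1, a regulator of brown adipocyte identity in mice, had 52.8, 35.1 and 52.1 CPM in BAT and 8.09, 6.26 and 8.88 CPM in IWAT (6.02-fold, adjusted p = 0.000672). Plet1os, Map2k3os and Fam120aos were higher in BAT by 144-, 6.21- and 4.28-fold, and Adap2os was 4.5-fold higher in IWAT. Plet1os and Adap2os share 21 and 14.8% of their exon bases with other genes, and without strand the reads of such a pair cannot be told apart.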

How the data were processed

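Poly-A RNA of 3 BAT and 3 IWAT libraries was analysed from the read counts per gene that the authors deposited. The submitters' processing notes name FastQC, STAR, HTSeq, DESeq2 and the build GRCm38.p5, with neither versions nor settings. All 55536 gene identifiers matched GENCODE M21, from which names and positions were taken. Summary tallies of reads without a gene, present in the BAT files (5.30 to 11.6% in no gene, 23.0 to 31.6% not unique), were left out. In R 4.3.3, edgeR 4.0.16 removed low genes (filterByExpr, at least 10 counts), computed TMM factors and ran its two-sided quasi-likelihood F test (Benjamini-Hochberg over all 16173 genes, threshold 0.05) in a fit of these 6 libraries without covariates. DESeq2 1.42.0 and limma 3.58.1 served as alternatives. Only the edgeR fit by depot was tried on simulated counts, with noise drawn separately for each gene. The alternative fits were not. CPM uses the TMM-scaled totals, and values per kilobase divide it by exon length. Adrb3, Atp2a1, Atpif1, Cebpb, Gpat3 and Mest share 20.7 to 37.4% of exon bases with other genes, and Hoxd4 52.3%, where counts are uncertain. Intervals and floors cover counting error only. Genes were named by a rule: up to 12 per direction with the largest robust change, the 10 most abundant per depot, up to 4 called members of each list, fixed depot markers and up to 5 long non-coding genes; others were chosen after their values were seen. The members and lists were chosen with earlier results of these data known. Some lists share members, such as Cox7a1 and Cox8b in the heat production and complex IV lists. Counts of such lists are therefore not separate results. Replicate numbers were not treated as pairs, because the labels do not say which libraries share an animal. Deviations of same-numbered libraries correlated at -0.04, -0.01 and 0.02. The numbers in the file names pair BAT replicate 2 with IWAT replicate 1 (-0.13) and BAT replicate 3 with IWAT replicate 3 (0.02). With 3 libraries of each tissue such values cannot settle whether animals were shared.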

Additional observations from a re-analysis of the deposited data

How the results depend on the processing

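The counts of 2300 genes higher in BAT and 2037 higher in IWAT became 1806 and 3408 with scaling by library totals, 679 and 437 when the difference had to exceed 2-fold (glmTreat), and 588 and 402 with the numbers in the file names as a block. Leaving out each library in turn gave 1105 to 3370 and 778 to 3599. The replicate block gave 1879 and 2017, and whether same-numbered libraries come from the same animals is not known. DESeq2 gave 2846 and 2629, limma-voom 1980 and 2127, and no filter on low counts 2434 and 2381. Of 170 named genes that were called, 90 kept the call in every alternative run. The causes of these changes were not tested.

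Directions turned for 9 genes. With BAT replicate 3 alone, the log2 differences of Adcy2, Atp5g1, Ryr1 and Tbx15 became -0.94, -1.30, -0.30 and -0.98, that of Fabp4 -0.31 and that of Scd1 0.63. With library totals, Ckb was at -0.059, En1 at -0.16 and Fabp4 at -0.17. The En1 log2 fold change was -0.018 with limma-voom and -0.042 with the replicate block. It was -0.058 with a term for the leading digit of the file-name number, which no label calls a batch. Fabp4 was at -0.006 with no filter, -0.001 with the replicate block and at -0.20 with the file-name numbers as a block, where Scd1 was at 0.006. Leaving out libraries gave -0.086 to 0.40 for Ckb, -0.56 to 0.30 for En1, -0.30 to 0.21 for Fabp4, -1.38 to 0.006 for Hoxd4 and -1.15 to 0.006 for Scd1. Of these 9 genes, Adcy2 and Ryr1 were called with all libraries.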
